A study of Camelus dromedarius with 30 samples.

Results

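The response of the kidney cortex to 20 days without water was measured in 10 poly(A)-selected RNA-seq libraries, 5 from control and 5 from dehydrated dromedary camels, out of 30 libraries in the series. These 10 were chosen by their labels, and every gene that passed a filter on low counts was tested. All camels were males aged 4 to 5 years, fed alfalfa hay and kept on a ranch. Control camels drank freely throughout, and dehydrated camels were fed without restriction but given no water for 20 days. The other 20 libraries are the medulla of the same 10 camels and the cortex and medulla of camels rehydrated for 3 days. They share the fit, and their values are given only where they are set beside the cortex. Each library is whole tissue of 1 animal, taken after slaughter.

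The renal cortex holds the glomeruli, which filter the blood, and most of the proximal tubules, which take back salt, sugars, amino acids and most of the filtered water and secrete organic anions. Proximal cells live on fatty acids burned in their many mitochondria. The distal tubules and the cortical collecting ducts then adjust sodium, potassium, calcium and acid, and vasopressin opens the collecting duct to water through aquaporins.

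Control libraries held 12634346 to 15443065 counted read pairs and dehydrated libraries 13458448 to 19785428. Control 3 stood apart, with a Euclidean distance of 121 from its group mean in log2 CPM over all tested genes (CPM is a gene's read pairs as a share of the scaled library total), against 54.3 to 72.3 for the other controls and 49.6 to 65.1 for the dehydrated libraries. Its library name, like that of dehydrated camel 4, carries a suffix of unstated meaning. The RNA integrity number (RIN), a score of RNA quality, averaged 8.1 (SD 0.5) in control and 7.7 (SD 0.2) in dehydrated cortex. Proximal tubule markers matched the labelled tissue, whereas the few podocyte markers did not. The 9 proximal tubule markers that were tested with a symbol summed to 3704 to 7466 CPM in the control and 1470.4 to 2567 CPM in the dehydrated camels, against 196 to 1429 CPM in control medulla. The 3 podocyte markers summed to 37.1 to 74.4 CPM in control cortex, below the 81.3 to 144.6 CPM of control medulla. Collecting duct markers stood at 1630.2 to 2019.9 CPM in control cortex, above the 672 to 1051 CPM of control medulla. Podocyte and leukocyte lists had only 3 and 2 tested members, and the other 16 of the 25 listed proximal markers carried no symbol or were not tested.

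**Figure D1:**
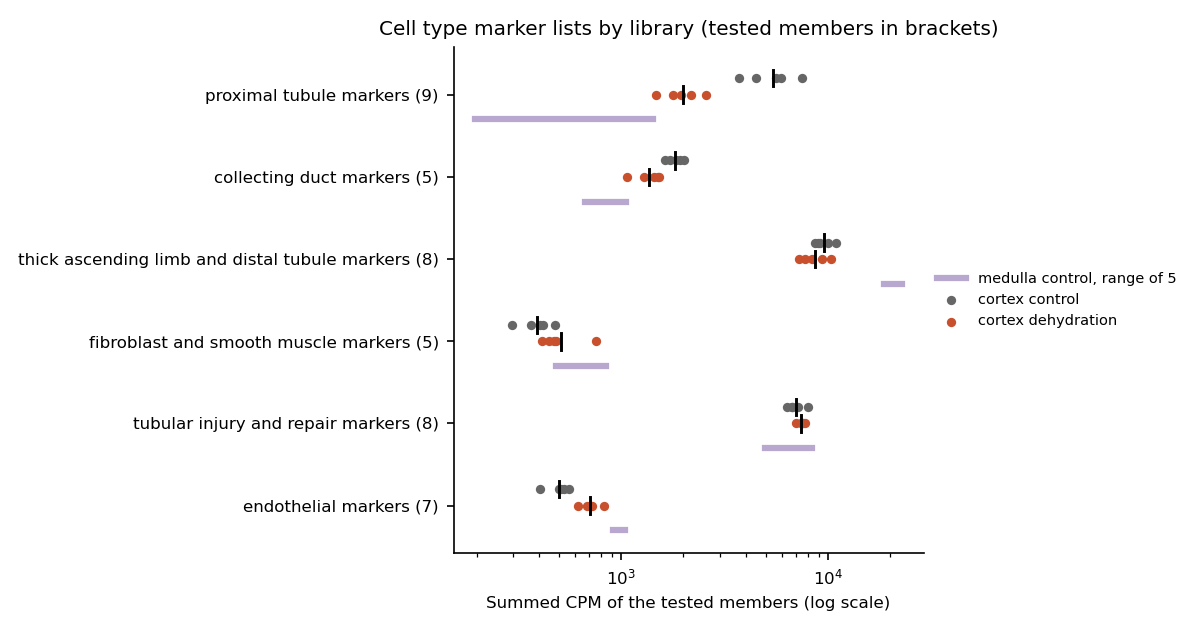
Summed CPM of each cell type marker list (x axis, log scale) in each cortex library, with black ticks for the group means and a bar for the range of the 5 control medulla libraries. The proximal tubule sums of control and dehydrated camels do not overlap, and neither do the collecting duct and endothelial sums. Only members with a symbol are summed, and symbols came from the study's lists of changed genes and proteins.

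The proximal tubule sum was thus lower in every dehydrated library, with a median log2 fold change over its 9 members of -1.07, although SLC17A3 alone passed the test. Markers entered these sums only with a symbol, and symbols came from the study's lists of changed genes and proteins in the same kidneys. Only 3 of the 9 proximal markers were in the protein lists. The marker sums are therefore not independent of the change between the groups. Collecting duct markers summed to 1630.2 to 2019.9 CPM in the control and 1071 to 1532 CPM in the dehydrated camels. Their members went both ways, with 3 of 5 log2 fold changes below 0 and 2 above. AQP3, the only one called, rose (2.35), so the lower sum does not hold for each member. Endothelial markers summed to 404 to 559 CPM in the control and 617 to 824 CPM in the dehydrated camels. Of the 7 endothelial markers, all had a log2 fold change above 0 and PECAM1, an endothelial adhesion molecule, rose (0.74 ± 0.15, p_adj = 0.00486). Tubular injury markers overlapped, at 6341 to 8044 CPM in the control and 6989.6 to 7712 CPM in the dehydrated camels, with 0 of 8 members called by edgeR and 2 at an unadjusted p-value under 0.05. Thick ascending limb and distal tubule markers, at 8654 to 10910.2 CPM in the control and 7239 to 10355 CPM in the dehydrated camels, and fibroblast and smooth muscle markers, at 296 to 477 CPM in the control and 412 to 754 CPM in the dehydrated camels, overlapped too. In whole tissue, fewer cells of a type and less RNA per cell cannot be told apart, and the part of these shifts in the results that follow was not tested.

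Of 15376 tested genes, 360 (2.34%) were differentially expressed genes (DEGs), at an adjusted p-value (p_adj) under 0.05 by the quasi-likelihood test of edgeR, adjusted after Benjamini and Hochberg. Of these, 197 (1.28% of the tested genes) were higher and 163 (1.06%) lower in dehydrated camels. The groups did not overlap in CPM in 283 of the 360, against 850 of all tested genes (5.53%). Per kilobase of exon, DEGs that rose went from a median of 5.40 to 10.5 CPM and those that fell from 27.4 to 11.9, against 6.07 and 6.15 over all tested genes. The rehydrated camels are in neither compared group, although they share the fit. In them, 125 of the 163 DEGs that fell were higher in cortex than in medulla (76.7%), against 65 of the 197 that rose and 45.3% of all tested genes.

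The number of DEGs depended on single libraries, on RIN, on the test and on which libraries were fitted. It was 390 without control 3, of which 278 were among the 360. Leaving out control 1, control 4, dehydrated 1, dehydrated 2, dehydrated 3 or dehydrated 5 gave 224, 212, 232, 219, 189 and 216 DEGs. Every DEG shared with the 360 kept its direction in these leave-one-out fits. With RIN as a covariate 214 genes were called, 211 of them among the 360. DESeq2 called 706, of which 44.1% were higher, against 54.7% of the 360.

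**Figure D2:**
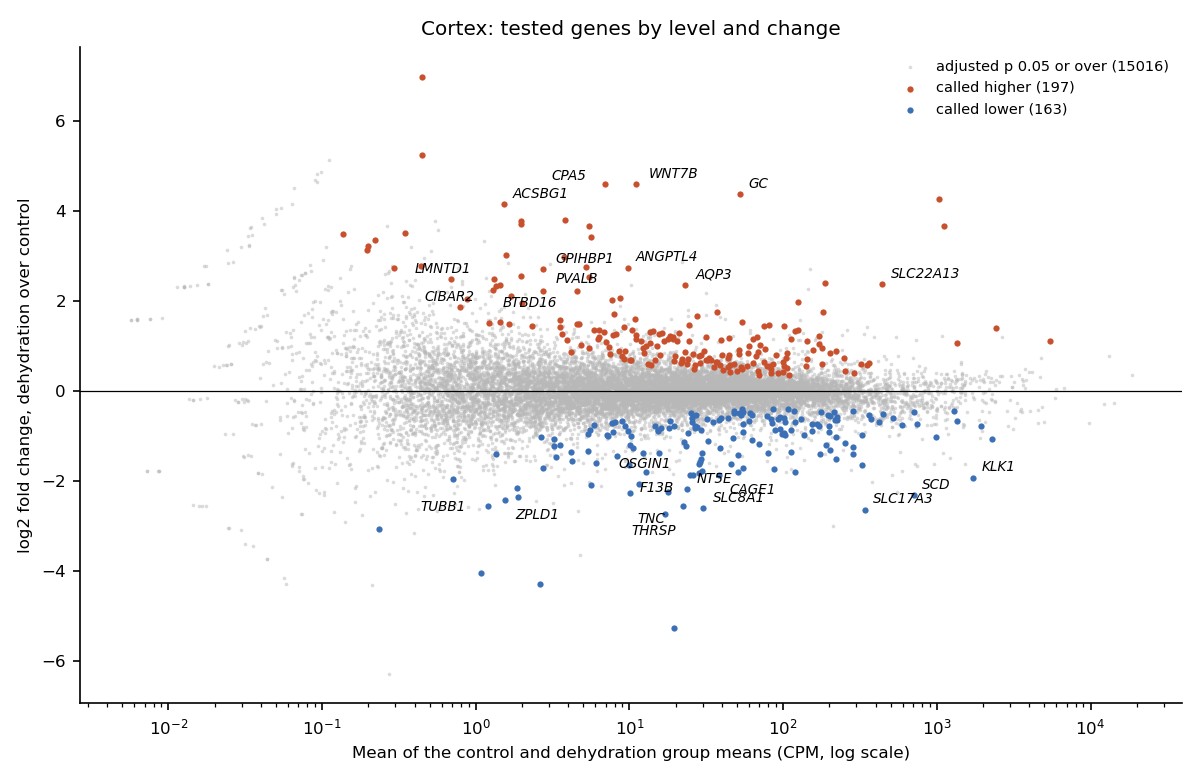
Each tested gene by its mean level in the compared libraries (x axis, CPM, log scale) and its log2 fold change in dehydrated over control cortex (y axis). The 197 genes called higher and the 163 called lower are coloured, and the 12 named genes with the highest and the lowest fold changes are labelled.

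In what follows, the value that precedes p_adj is the log2 fold change in edgeR's test with an SE. That SE was derived from the F statistic of the test, as the size of the log2 fold change over its square root. A ± after CPM gives the SD over the 5 libraries of a group. Gene symbols came from the supplementary lists of the study, which were lists of DEGs and of differentially expressed proteins, so that symbols are not spread evenly. Of 3746 tested genes with a symbol 310 were DEGs (8.28%). Of the 2694 named through the protein lists 70 were (2.6%), 28 higher (1.04%) and 42 lower (1.56%). The protein lists were selected for protein change between conditions in the same kidneys, and some of their genes for RNA change too. The share of 2.6% is therefore not an independent background. Counts in the gene lists below are therefore read against 8.28%, and their medians against a median log2 fold change of 0.00 over all tested genes and -0.02 over those with a symbol.

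The gene that rose most clearly was WNT7B, a WNT ligand of the ureteric bud lineage that patterns the renal medulla (CamDro2 chromosome 12, 64204956 to 64257775, minus strand). It stood at 0.765, 0.146, 1.28, 1.05 and 1.30 CPM in the control camels and 11.1, 23.3, 37.9, 12.1 and 22.3 CPM in the dehydrated camels, a 24.0-fold rise (log2 fold change 4.59 ± 0.49 (SE), p_adj = 3.15e-06). CPA5, a carboxypeptidase, rose as much, from 0.340, 0.800, 0.591, 0 and 1.02 CPM to 7.25, 16.4, 22.6, 6.68 and 14.0 CPM (log2 fold change 4.59 ± 0.85 (SE), p_adj = 0.00281). Absence of overlap between the groups was required of the 12 genes with the highest and the 12 with the lowest fold changes, and is no result for them. The control values of WNT7B and CPA5 lay near 1 CPM or below. Both were far higher in the control medulla, at 127 ± 28.6 CPM and 34.99 ± 34.4 CPM. Others of the 12 highest were higher there too. Mean CPM in control medulla and control cortex was 320 and 4.80 for GC and 66.4 and 7.60 for AQP3. It was 14.2 and 2.53 for ANGPTL4 and 4.93 and 0.722 for GPIHBP1. LMNTD1, CIBAR2 and PVALB were also higher in the medulla, and SLC22A13 (49.0 and 143) and BTBD16 were not. ACSBG1 was close to undetected in both, at 0.314 ± 0.174 CPM in control medulla and 0.161 ± 0.199 CPM in control cortex. The part of medullary tissue in the cortex samples was not tested. The 3 tested medulla and thin limb markers summed to 26.8 to 46.1 CPM in the control and 33.6 to 49.5 CPM in the dehydrated camels. UMOD, the uromodulin gene of the thick ascending limb, which stood at 16736 ± 2172 CPM in control medulla, went from 3609 ± 624 to 5986 ± 1342 CPM in the cortex (p_adj = 0.0516).

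ANGPTL4, a secreted inhibitor of lipoprotein lipase, stood at 1.62, 1.89, 3.45, 3.75 and 1.95 CPM in the control camels and 17.7, 33.4, 10.5, 9.42 and 13.7 CPM in the dehydrated camels (log2 fold change 2.74 ± 0.61 (SE), p_adj = 0.0133). GPIHBP1, which holds that lipase on the capillary wall, went from 0.722 ± 0.407 to 4.73 ± 1.05 CPM (log2 fold change 2.71 ± 0.44 (SE), p_adj = 0.00121). The acyl-CoA synthetase ACSBG1 was close to undetected in control camels, at 0 to 0.464 CPM, and stood at 3.20, 4.00, 2.72, 2.31 and 2.33 CPM in dehydrated camels (log2 fold change 4.15 ± 0.75 (SE), p_adj = 0.00259). None of these genes had overlapping groups, as the choice of named genes required. GC, the vitamin D-binding protein, stood at 9.61, 3.49, 5.81, 3.23 and 1.86 CPM in the control camels and 17.3, 84.7, 361, 10.2 and 26.8 CPM in the dehydrated camels (log2 fold change 4.38 ± 1.00 (SE), p_adj = 0.0154). The dehydrated values of GC spread over more than a 10-fold range, with dehydrated 3 far above the rest.

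SLC22A13, a urate and nicotinate exchanger of the proximal tubule brush border, rose in all dehydrated camels (CamDro2 chromosome 17, 8231217 to 8242285, plus strand). It stood at 109, 182, 223, 87.2 and 114 CPM in the control camels and 1116, 717, 392, 885 and 586 CPM in the dehydrated camels, a 5.17-fold rise (log2 fold change 2.37 ± 0.52 (SE), p_adj = 0.0123). AQP3, the basolateral water channel of the collecting duct, stood at 7.23, 5.82, 7.10, 9.68 and 8.16 CPM in the control camels and 30.9, 25.8, 58.2, 25.8 and 52.8 CPM in the dehydrated camels (log2 fold change 2.35 ± 0.55 (SE), p_adj = 0.0189). The lowest dehydrated library held more than 2 times the CPM of the highest control for AQP3, and the same was not so for SLC22A13. PVALB, a calcium-binding protein of the distal convoluted tubule, rose 4.66-fold at a low level, from 0.967 ± 0.167 to 4.55 ± 0.962 CPM (2.22 ± 0.38, p_adj = 0.00163). LMNTD1 (2.49 ± 0.55, p_adj = 0.0122), CIBAR2 (2.33 ± 0.48, p_adj = 0.00701) and BTBD16 (2.24 ± 0.60, p_adj = 0.0400) complete the 12 highest, all at group means under 3 CPM. WNT7B, CPA5, ANGPTL4, GPIHBP1, ACSBG1, SLC22A13, PVALB and CIBAR2 kept their calls in each of the 10 leave-one-out fits. GC lost its call without dehydrated 3 (p_adj up to 0.106), AQP3 lost its call without control 2 or dehydrated 3 (p_adj up to 0.0561) and LMNTD1 lost its call without dehydrated 3 (p_adj up to 0.0519). BTBD16 lost its call in 9 of 10 (p_adj up to 0.113). AQP3 (p_adj = 0.0602) and BTBD16 (p_adj = 0.0943) lost their calls with RIN as a covariate, and CPA5 (p_adj = 0.102), ANGPTL4 (p_adj = 0.305), ACSBG1 (p_adj = 0.0561), CIBAR2 (p_adj = 0.0639), GC (p_adj = 0.221) and AQP3 (p_adj = 0.0702) lost their calls under limma-voom.

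**Figure D3:**
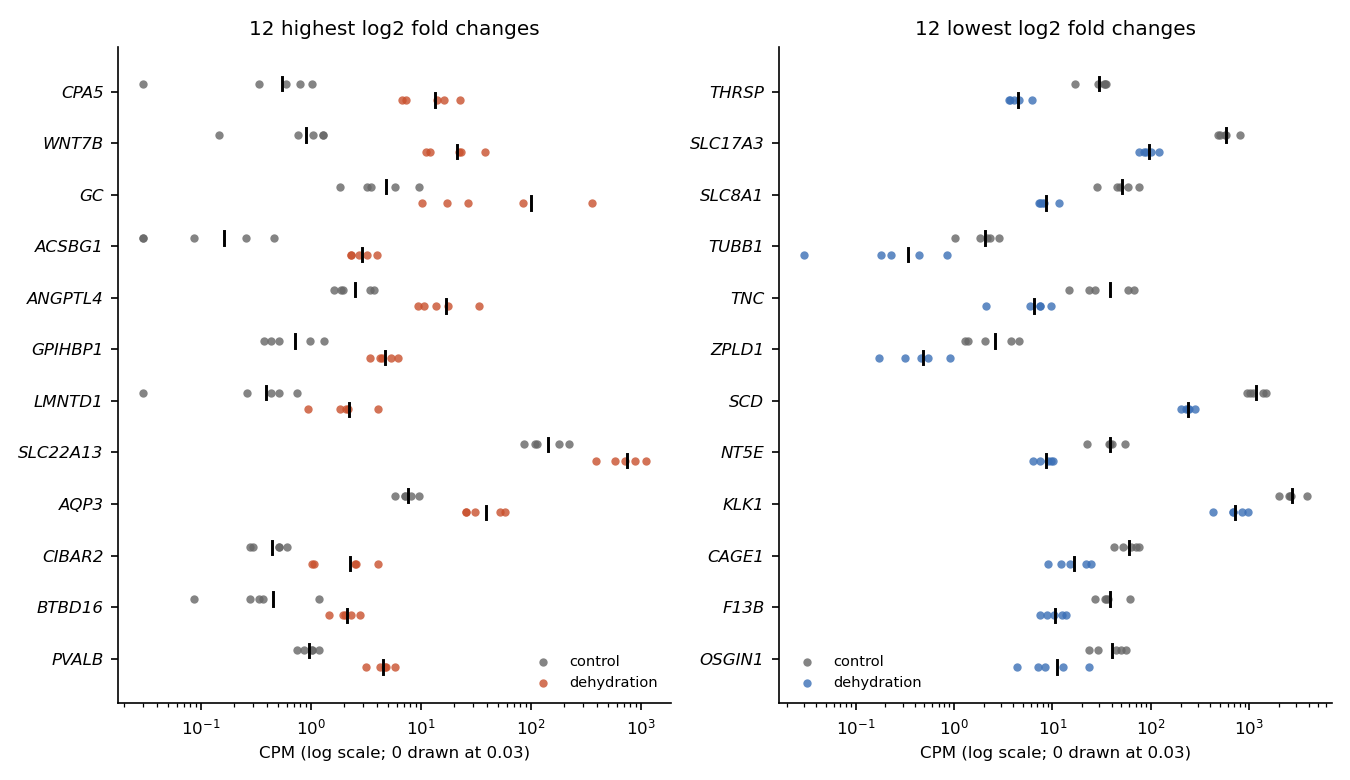
CPM in each of the 10 libraries (x axis, log scale) for the 12 genes with a symbol whose log2 fold change was highest (left) and lowest (right) among DEGs with no overlap and a mean of at least 1 CPM. Points are libraries and black ticks group means, and the rise of GC rests on dehydrated values from 10.2 to 361 CPM.

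The 12 lowest fold changes included genes of lipid synthesis and of tubular transport. THRSP, a nuclear protein that drives lipogenesis, stood at 35.2, 33.7, 17.0, 34.1 and 28.8 CPM in the control camels and 4.58, 3.73, 6.18, 4.11 and 3.65 CPM in the dehydrated camels (log2 fold change -2.74 ± 0.50 (SE), p_adj = 0.00281). SCD, the desaturase that makes oleate from stearate, stood at 1018, 1081, 944, 1385 and 1467 CPM in the control camels and 229.6, 242, 281, 236 and 204 CPM in the dehydrated camels, a 4.94-fold fall (log2 fold change -2.31 ± 0.31 (SE), p_adj = 0.000142). The group values of both genes lay far apart relative to their spread, and SCD varied little among dehydrated camels. SLC17A3, a voltage-driven urate and organic anion transporter of proximal cells, stood at 573, 561, 507, 800.4 and 483 CPM in the control camels and 85.5, 101, 75.8, 121 and 90.0 CPM in the dehydrated camels (log2 fold change -2.63 ± 0.54 (SE), p_adj = 0.00649). SLC8A1, the sodium-calcium exchanger of the distal tubule, stood at 58.9, 75.4, 28.6, 45.3 and 49.1 CPM in the control camels and 7.33, 8.27, 11.7, 7.88 and 7.49 CPM in the dehydrated camels (log2 fold change -2.59 ± 0.51 (SE), p_adj = 0.00495). No dehydrated value reached the lowest control in any of these genes, as the choice of named genes required.

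Others of the lowest 12 work outside the cell. TNC, the matrix protein tenascin C, went from 38.2 ± 23.1 to 6.51 ± 2.79 CPM (-2.55 ± 0.51, p_adj = 0.00542). NT5E, the ectoenzyme that makes adenosine from AMP, went from 38.6 ± 11.2 to 8.55 ± 1.56 CPM (-2.18 ± 0.51, p_adj = 0.0183). KLK1, the tissue kallikrein that releases kinins in the distal nephron, was the most abundant of the 12 per kilobase as well as in CPM and stood at 1992, 2589, 2517, 2631 and 3838 CPM in the control camels and 838, 683, 679, 961 and 432 CPM in the dehydrated camels (log2 fold change -1.92 ± 0.52 (SE), p_adj = 0.0462). Its p_adj was close to the threshold. F13B, a subunit of coagulation factor XIII, went from 38.7 ± 12.9 to 10.7 ± 2.60 CPM (-1.86 ± 0.37, p_adj = 0.00542), and OSGIN1, a gene of the oxidative stress response, from 40.6 ± 13.7 to 11.2 ± 7.40 CPM (-1.85 ± 0.41, p_adj = 0.0133). The remaining members were CAGE1 (-1.87 ± 0.35, p_adj = 0.00298), ZPLD1 (-2.41 ± 0.66, p_adj = 0.0460) and TUBB1, a tubulin of platelets (-2.56 ± 0.69, p_adj = 0.0425). THRSP, SCD, SLC17A3, SLC8A1, TNC, F13B, OSGIN1 and CAGE1 kept their calls in each of the 10 leave-one-out fits. NT5E lost its call without control 4, dehydrated 3 or dehydrated 5 (p_adj up to 0.0560). KLK1 lost its call in 10 of 10 (p_adj up to 0.129), ZPLD1 in 8 of 10 (p_adj up to 0.123) and TUBB1 in 8 of 10 (p_adj up to 0.113). KLK1 (p_adj = 0.0904) and ZPLD1 (p_adj = 0.0984) lost their calls with RIN as a covariate, and TNC (p_adj = 0.0833) and ZPLD1 (p_adj = 0.180) lost their calls under limma-voom. Without control 3, p_adj was 0.0552 for KLK1, 0.0502 for ZPLD1 and 0.0536 for TUBB1.

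Some of the largest changes among DEGs without overlap were in genes without a symbol. ENSCDRG00005013573 (CamDro2 chromosome 9, 3292171 to 3299362, minus strand) stood at 19.0, 148, 152, 167 and 22.5 CPM in the control camels and 3544, 852, 1570.1, 2717 and 1153 CPM in the dehydrated camels (log2 fold change 4.27 ± 0.74 (SE), p_adj = 0.00188). ENSCDRG00005018498 (CamDro2 chromosome 19, 31808317 to 31810048, minus strand) went from 163 ± 105 to 2063 ± 819.7 CPM (3.66 ± 0.82, p_adj = 0.0133). Both reached about 2000 CPM on average in dehydrated cortex. ENSCDRG00005021452 (CamDro2 chromosome 20, 22095402 to 22102387, minus strand) fell in every dehydrated camel, from 2.89, 28.2, 33.1, 38.8 and 87.2 CPM to 0.839, 1.18, 0.907, 0.856 and 1.13 CPM (log2 fold change -5.26 ± 0.91 (SE), p_adj = 0.00188). ENSCDRG00005013573, ENSCDRG00005018498 and ENSCDRG00005021452 kept their calls in each of the 10 leave-one-out fits. ENSCDRG00005021452 (p_adj = 0.222) lost its call under limma-voom.

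Across 46 described lists of pathways, families, complexes and organelles, each with at least 5 tested members with a symbol, 83 of 823 members were DEGs (10.1%). In 27 lists the share was above 8.28%. Called members were lower only in 12 lists, higher only in 10, in both directions in 14 and in neither in 10, and the list median was below 0 in 28.

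The list median was lowest for cholesterol synthesis. Of 19 cholesterol synthesis enzymes 10 fell and 0 rose, with a median log2 fold change of -1.14 (-1.25 to -1.05 over all alternatives). Among them SQLE, the squalene epoxidase, stood at 375, 522, 415, 472 and 671 CPM in the control camels and 148, 164, 122, 262 and 90.1 CPM in the dehydrated camels (log2 fold change -1.64 ± 0.26 (SE), p_adj = 0.00107). INSIG1, the sterol sensor that holds SREBP in the endoplasmic reticulum, fell from 44.1 ± 10.9 to 12.4 ± 3.73 CPM (-1.82 ± 0.27, p_adj = 0.000530), as did NPC2, the lysosomal cholesterol carrier (-0.55 ± 0.15, p_adj = 0.0481), the called members of 9 genes of sterol uptake and control. In fatty acid synthesis and desaturation, 4 of 14 fell and 1 rose. Beside SCD and THRSP, the elongation enzymes HSD17B12 (-0.90 ± 0.14, p_adj = 0.000672) and HACD2 (-0.82 ± 0.20, p_adj = 0.0252) fell, and the fatty acid hydroxylase FA2H rose (0.40 ± 0.11, p_adj = 0.0460). SQLE, INSIG1 and HSD17B12 kept their calls in each of the 10 leave-one-out fits. HACD2 lost its call in 7 of 10 (p_adj up to 0.0835), FA2H in 8 of 10 (p_adj up to 0.140) and NPC2 in 9 of 10 (p_adj up to 0.120). FA2H (p_adj = 0.106) and NPC2 (p_adj = 0.0917) lost their calls with RIN as a covariate, and NPC2 (p_adj = 0.0534) lost its call under limma-voom.

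Genes that burn fatty acids had log2 fold changes below 0 in most cases. Of 16 genes of mitochondrial fatty acid oxidation 3 fell and 0 rose, with 13 below 0 and a median of -0.39. ACADM, the medium-chain acyl-CoA dehydrogenase, stood at 1437, 1656, 967, 1389 and 1129.6 CPM in the control camels and 799, 588, 711, 636 and 520.0 CPM in the dehydrated camels (log2 fold change -1.02 ± 0.26 (SE), p_adj = 0.0344). CPT2, the inner carnitine palmitoyltransferase (-0.45 ± 0.11, p_adj = 0.0206), and DECR1, needed for unsaturated chains (-0.66 ± 0.18, p_adj = 0.0416), made up the rest. Control 3 had the lowest value of the control camels for ACADM, CPT2 and DECR1. Among acyl-CoA synthetases and thioesterases ACSF2 fell (-0.74 ± 0.15, p_adj = 0.00609) and ACSBG1 rose, and the peroxisome list had a median of -0.32 with 0 of 17 called by edgeR, 6 at an unadjusted p-value under 0.05 and 4 called by DESeq2. Of 9 PPAR target genes, ANGPTL4 and PPARG itself (0.88 ± 0.24, p_adj = 0.0432) rose and ACADM fell. ACSF2 kept its call in each of the 10 leave-one-out fits. CPT2 lost its call in 4 of 10 (p_adj up to 0.0656), ACADM in 7 of 10 (p_adj up to 0.0996), DECR1 in 8 of 10 (p_adj up to 0.129) and PPARG in 8 of 10 (p_adj up to 0.126). CPT2 (p_adj = 0.0510), DECR1 (p_adj = 0.0635) and PPARG (p_adj = 0.0790) lost their calls with RIN as a covariate, and DECR1 (p_adj = 0.0514) and PPARG (p_adj = 0.248) lost their calls under limma-voom.

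In the tricarboxylic acid cycle and its entry, 3 of 23 genes fell and 0 rose (median -0.37). PDK3, a kinase that shuts the pyruvate dehydrogenase complex, stood at 307, 285, 164, 313 and 255 CPM in the control camels and 126, 103, 85.4, 134 and 129 CPM in the dehydrated camels (log2 fold change -1.20 ± 0.16 (SE), p_adj = 0.000142). IDH2, the mitochondrial isocitrate dehydrogenase (-0.76 ± 0.17, p_adj = 0.0128), and OGDH, the 2-oxoglutarate dehydrogenase (-0.57 ± 0.12, p_adj = 0.0102), were the others, so that an inhibitor of the cycle's entry and enzymes of the cycle fell together. In respiratory complex I, all 19 members had a log2 fold change below 0, with a median of -0.31, -0.19 without control 3, but 0 were called by edgeR, 8 had an unadjusted p-value under 0.05 and DESeq2 called 1. All 17 members of complexes II to IV and ATP synthase were below 0 too (median -0.37), with UQCRC2 (-0.52 ± 0.12, p_adj = 0.0196) and ATP5F1C (-0.46 ± 0.12, p_adj = 0.0383) called. Summed CPM overlapped between groups in both lists. It was 3998.65 to 7323.58 in the control and 3839.6 to 5743.21 in the dehydrated camels for complex I. For complexes II to IV and ATP synthase it was 16483 to 23775.5 and 13385.3 to 18797.1. The mitochondrial ribosome had 1 of 54 called, MRPS36 (-0.63 ± 0.13, p_adj = 0.00906), and a median of -0.15, -0.09 without control 3. Single calls were also made for LDHD, which oxidizes D-lactate (-0.71 ± 0.13, p_adj = 0.00358), among 11 genes of glycolysis and gluconeogenesis, and for HIBCH of valine breakdown (-0.88 ± 0.17, p_adj = 0.00495) among 28 genes of amino acid breakdown. PDK3, IDH2, OGDH, MRPS36, LDHD and HIBCH kept their calls in each of the 10 leave-one-out fits. UQCRC2 lost its call without control 4, dehydrated 3 or dehydrated 5 (p_adj up to 0.0696). ATP5F1C lost its call in 7 of 10 (p_adj up to 0.114). UQCRC2 (p_adj = 0.0565) and ATP5F1C (p_adj = 0.106) lost their calls with RIN as a covariate.

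Transporters of the proximal tubule were called in both directions. Of 22 tested, 4 fell and 2 rose, with a median of -0.29, -0.07 without control 3. SLC7A7, a basolateral cationic amino acid exchanger, stood at 329, 269.8, 169, 333 and 367 CPM in the control camels and 129.9, 117, 135, 186 and 162 CPM in the dehydrated camels (log2 fold change -1.01 ± 0.17 (SE), p_adj = 0.00123). SLC13A1, the sodium-sulphate cotransporter (-1.80 ± 0.44, p_adj = 0.0231), and the efflux pump ABCC6 (-1.11 ± 0.29, p_adj = 0.0373) fell beside SLC17A3. The urate exporter ABCG2 rose beside SLC22A13, from 12.1 ± 5.71 to 29.8 ± 10.3 CPM (1.30 ± 0.29, p_adj = 0.0133). SLC22A8, an anion uptake carrier of the basolateral membrane, had a log2 fold change of -1.61 and did not pass the test (p_adj = 0.193). Genes of urate transport therefore lay on both sides, with SLC17A3 lower and SLC22A13 and ABCG2 higher. SLC7A7 and ABCG2 kept their calls in each of the 10 leave-one-out fits. SLC13A1 lost its call in 5 of 10 (p_adj up to 0.0707) and ABCC6 in 9 of 10 (p_adj up to 0.0996). SLC13A1 (p_adj = 0.0524) and ABCC6 (p_adj = 0.0542) lost their calls with RIN as a covariate.

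Lists of ion transport held called members in both directions. Of 19 genes of sodium, potassium and chloride transport, KCNJ8, a pore of the ATP-sensitive potassium channel of vascular cells (1.25 ± 0.21, p_adj = 0.00123), and SLC12A4, a potassium-chloride cotransporter (0.59 ± 0.13, p_adj = 0.0154), rose and KLHL3 fell (3 of 19). KLHL3, the adaptor that sends WNK kinases for degradation in the distal tubule, stood at 118, 149, 173, 131 and 152 CPM in the control camels and 94.5, 71.9, 67.7, 92.0 and 71.5 CPM in the dehydrated camels (log2 fold change -0.86 ± 0.18 (SE), p_adj = 0.00627). The sodium pump subunit ATP1B1 (-0.30 ± 0.25, p_adj = 0.632), the epithelial sodium channel subunit SCNN1A (-0.59 ± 0.21, p_adj = 0.145) and the kinase SGK1 (-0.59 ± 0.30, p_adj = 0.354) were not called. In calcium, magnesium and phosphate handling, 2 of 14 rose and 2 fell. STC1, the hormone stanniocalcin, rose from 3.28 ± 1.85 to 14.0 ± 4.09 CPM (2.07 ± 0.52, p_adj = 0.0287), and FGF1 fell beside SLC8A1 (-0.78 ± 0.21, p_adj = 0.0409). TNFRSF11B, the decoy receptor osteoprotegerin, rose from at most 1 read pair in any control library, too few for a fold change. CALB1, the distal calcium-binding protein, went from 1585 ± 654 to 609 ± 141 CPM without passing the test (p_adj = 0.195). KLHL3 and KCNJ8 kept their calls in each of the 10 leave-one-out fits. SLC12A4 lost its call without control 1, control 2 or dehydrated 5 (p_adj up to 0.0561). STC1 lost its call in 8 of 10 (p_adj up to 0.0818) and FGF1 in 6 of 10 (p_adj up to 0.140). STC1 (p_adj = 0.0574) and FGF1 (p_adj = 0.139) lost their calls with RIN as a covariate, and STC1 (p_adj = 0.322) lost its call under limma-voom.

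Among 13 genes of water channels, vasopressin and cyclic nucleotide signalling 2 rose and 0 fell, with a median of 0.36, and 0 were called with RIN as a covariate (AQP3 and PDE2A losing their calls) or under limma-voom. Beside AQP3 this was PDE2A, a phosphodiesterase stimulated by cyclic GMP (0.74 ± 0.19, p_adj = 0.0270). AQP2, the apical channel regulated by vasopressin, stood at 239, 159, 244, 158 and 194 CPM in the control camels and 237, 261, 255, 243 and 159 CPM in the dehydrated camels (log2 fold change 0.22 ± 0.22 (SE), p_adj = 0.736), and the groups overlapped. Of 9 genes of the osmolyte and tonicity response only SLC6A6, the taurine transporter, was called (0.99 ± 0.27, p_adj = 0.0488), and the betaine carrier SLC6A12 (1.58 ± 0.56, p_adj = 0.144) and the urea channel SLC14A1 (2.73 ± 0.89, p_adj = 0.104) were not. CA9, a carbonic anhydrase of the cell surface, was the single call among 18 genes of acid and ammonium handling. It stood at 22.6, 34.99, 70.7, 45.2 and 80.1 CPM in the control camels and 195, 272, 191, 182 and 154 CPM in the dehydrated camels (log2 fold change 1.97 ± 0.36 (SE), p_adj = 0.00281), and the median of that list was -0.32, with 16 members below 0. CA9 kept its call in each of the 10 leave-one-out fits. PDE2A lost its call in 5 of 10 (p_adj up to 0.0758) and SLC6A6 in 10 of 10 (p_adj up to 0.117). PDE2A (p_adj = 0.0843) and SLC6A6 (p_adj = 0.138) lost their calls with RIN as a covariate, and PDE2A (p_adj = 0.0576) and SLC6A6 (p_adj = 0.0669) lost their calls under limma-voom.

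CA9 also belongs to the hypoxia response, in which 3 of 16 rose and 1 fell. P4HA1, a collagen prolyl hydroxylase subunit (0.75 ± 0.14, p_adj = 0.00430), and ANGPTL4 rose with it, whereas 13 of the 16 were below 0, PDK3 being the one called, and the median was -0.56. Glycolytic members such as ENO1 (-0.18 ± 0.14, p_adj = 0.604) and the glucose carrier SLC2A1 (-0.11 ± 0.22, p_adj = 0.884) were not called.

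Members of local hormone systems were called in both directions. In the renin-angiotensin, natriuretic and vasoactive list, 2 of 16 rose and 3 fell, and 1 of these 5, CTSB, stayed called with RIN as a covariate. BDKRB1, the inducible kinin receptor, rose at a low level, from 0.618 ± 0.404 to 1.81 ± 0.612 CPM (1.52 ± 0.38, p_adj = 0.0252), while KLK1, which releases kinins, fell. CTSB, a lysosomal cysteine protease, stood at 2580.3, 2149, 2666, 4078 and 4032 CPM in the control camels and 1308, 1621, 1462, 1609 and 1456 CPM in the dehydrated camels (log2 fold change -1.06 ± 0.21 (SE), p_adj = 0.00495). CTSA, another lysosomal protease, fell with it (-0.61 ± 0.15, p_adj = 0.0220), and with NPC2 they are the 3 called among 25 lysosome genes (median -0.24). HSD11B1, which regenerates active glucocorticoid, fell from 78.4 ± 14.5 to 22.7 ± 6.08 CPM (-1.79 ± 0.32, p_adj = 0.00259) and was the only call of 7 glucocorticoid response genes. THRA, a thyroid hormone receptor, rose from 108 ± 14.3 to 177 ± 32.9 CPM (0.71 ± 0.15, p_adj = 0.00750). P4HA1, CTSB, HSD11B1 and THRA kept their calls in each of the 10 leave-one-out fits. BDKRB1 lost its call in 5 of 10 (p_adj up to 0.0906) and CTSA in 4 of 10 (p_adj up to 0.0765). BDKRB1 (p_adj = 0.0599) and CTSA (p_adj = 0.0736) lost their calls with RIN as a covariate, and BDKRB1 (p_adj = 0.0985) lost its call under limma-voom.

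Of 15 cytochrome P450, glucuronyl and sulphotransferase genes and their partners, 4 rose and 0 fell, and the list median was 0.21, 0.05 without control 3. FMO5, a flavin monooxygenase, stood at 1419, 1432, 1253, 1294 and 1336 CPM in the control camels and 3743, 3473, 3944, 3424 and 3112 CPM in the dehydrated camels (log2 fold change 1.39 ± 0.34 (SE), p_adj = 0.0252). All its dehydrated values lay far above the control values, which varied little. AOX1, an aldehyde oxidase (1.05 ± 0.24, p_adj = 0.0175), PAPSS1, which makes the sulphate donor (0.93 ± 0.20, p_adj = 0.00825), and UGT8, a galactosyltransferase of sphingolipid synthesis (1.28 ± 0.26, p_adj = 0.00708), were the others. In oxidative stress and glutathione NQO1, a quinone reductase, fell in every dehydrated camel, from 193 ± 16.6 to 116 ± 9.86 CPM (-0.74 ± 0.13, p_adj = 0.00188), as the single call of 26. Of 13 genes of aldehyde, aldo-keto and retinoid metabolism, RBP5 (-1.40 ± 0.25, p_adj = 0.00249) and RETSAT (-0.68 ± 0.18, p_adj = 0.0451) fell. NQO1, UGT8, PAPSS1 and RBP5 kept their calls in each of the 10 leave-one-out fits. AOX1 lost its call without dehydrated 4 (p_adj up to 0.0595). FMO5 lost its call in 6 of 10 (p_adj up to 0.0637) and RETSAT in 8 of 10 (p_adj up to 0.124). AOX1 (p_adj = 0.0542), FMO5 (p_adj = 0.0800) and RETSAT (p_adj = 0.0783) lost their calls with RIN as a covariate, and RETSAT (p_adj = 0.0518) lost its call under limma-voom.

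Signalling and matrix lists held from 1 to 5 called members. In WNT signalling the transcription factor TCF7L1 rose beside WNT7B (0.80 ± 0.22, p_adj = 0.0454) and the secreted antagonist SFRP4 fell (-2.08 ± 0.48, p_adj = 0.0167), out of 10. SMAD7, the inhibitor of TGF-beta receptors, stood at 25.6, 26.3, 21.6, 29.6 and 25.7 CPM in the control camels and 40.4, 38.1, 44.2, 44.3 and 41.5 CPM in the dehydrated camels (log2 fold change 0.69 ± 0.12 (SE), p_adj = 0.00249), the single call of 8. Of 21 growth factor and receptor tyrosine kinase genes, ERBB2 (0.85 ± 0.17, p_adj = 0.00609), the endothelial ligand ANGPT2 (1.70 ± 0.31, p_adj = 0.00281), DUSP6, a phosphatase of ERK (0.92 ± 0.24, p_adj = 0.0326), and PLCG1 (0.43 ± 0.11, p_adj = 0.0234) rose, and FGF1, given above, fell. ANGPT2 stood at 140.1 ± 37.1 CPM in control medulla, above its 3.69 ± 1.28 to 12.1 ± 4.37 CPM in cortex. In collagens and extracellular matrix, NID1 of basement membranes rose (0.83 ± 0.20, p_adj = 0.0185) with P4HA1, and TNC fell. CDC25B, which promotes entry into mitosis, rose (1.11 ± 0.20, p_adj = 0.00281), and BCL2L1, an anti-apoptotic gene, fell (-0.45 ± 0.13, p_adj = 0.0493). SMAD7, ERBB2, ANGPT2 and CDC25B kept their calls in each of the 10 leave-one-out fits. TCF7L1 lost its call in 8 of 10 (p_adj up to 0.132), SFRP4 in 4 of 10 (p_adj up to 0.0548), DUSP6 in 7 of 10 (p_adj up to 0.0877), PLCG1 in 7 of 10 (p_adj up to 0.0714), NID1 in 5 of 10 (p_adj up to 0.0636) and BCL2L1 in 9 of 10 (p_adj up to 0.125). TCF7L1 (p_adj = 0.0943), DUSP6 (p_adj = 0.0760) and BCL2L1 (p_adj = 0.0667) lost their calls with RIN as a covariate, and SFRP4 (p_adj = 0.0669) lost its call under limma-voom.

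Called members were 4 of 15 in cytokines, chemokines and NF-kB, 1 of 20 in complement and coagulation and 1 of 24 in integrins and cell junctions, the last 2 lists below the share of 8.28%. CCL14, a chemokine, stood at 51.5, 39.9, 93.7, 69.7 and 83.3 CPM in the control camels and 166, 145, 140.0, 177 and 224 CPM in the dehydrated camels (log2 fold change 1.33 ± 0.27 (SE), p_adj = 0.00612). ACKR2, a scavenging chemokine receptor, rose (1.20 ± 0.29, p_adj = 0.0237) and the cytokine IL18 fell (-1.602 ± 0.42, p_adj = 0.0343). The leukocyte integrin ITGB2 rose from 7.48 ± 2.82 to 16.3 ± 3.61 CPM (1.12 ± 0.29, p_adj = 0.0313), and F13A1, the catalytic subunit of factor XIII, whose B subunit gene F13B fell, from 1.601 ± 1.08 to 7.52 ± 4.19 CPM (2.22 ± 0.50, p_adj = 0.0142). The complement genes C1QA and C1QC, made by macrophages, were not called (0.89 ± 0.54, p_adj = 0.483 and 0.74 ± 0.54, p_adj = 0.581). CCL14 kept its call in each of the 10 leave-one-out fits. F13A1 lost its call without dehydrated 5 (p_adj up to 0.0624). ACKR2 lost its call in 5 of 10 (p_adj up to 0.0758), IL18 in 8 of 10 (p_adj up to 0.100) and ITGB2 in 6 of 10 (p_adj up to 0.0928). IL18 (p_adj = 0.0675) and ITGB2 (p_adj = 0.0679) lost their calls with RIN as a covariate.

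Several lists of stress and housekeeping machinery had 0 called members in edgeR's test, namely 35 heat shock proteins and chaperones (median 0.03, 0.00 without control 3), 17 genes of endoplasmic reticulum folding (-0.24), 24 of the proteasome (-0.11), 38 cytosolic ribosomal proteins (0.20, 0.31 without control 3), 56 of vesicle trafficking (-0.10) and 15 of chromatin and DNA methylation (0.18). Ribosomal proteins leaned upward all the same, with 36 of 38 above 0. Their summed CPM overlapped between groups, at 35467.5 to 60686.2 in the control and 48510.6 to 65936.1 in the dehydrated camels. At an unadjusted p-value under 0.05 the members numbered 5, 3, 2, 0, 5 and 4 in the same order, and DESeq2 called 1, 0, 2, 0, 2 and 1. The sign of the heat shock median held under 19 of 23 alternatives. Among splicing factors and helicases 1 of 49 was called, SRSF4 (0.60 ± 0.15, p_adj = 0.0283). SRSF4 lost its call in 6 of 10 (p_adj up to 0.0901). SRSF4 (p_adj = 0.0508) lost its call with RIN as a covariate. The 6 lists with fewer than 5 tested members held 18, of which 2 were called, MAFF, a stress-induced transcription factor (1.42 ± 0.38, p_adj = 0.0410), and CIART, a repressor of the circadian clock (-1.38 ± 0.32, p_adj = 0.0163). CIART lost its call without dehydrated 1 or dehydrated 2 (p_adj up to 0.0548). MAFF lost its call in 8 of 10 (p_adj up to 0.114). MAFF (p_adj = 0.0821) lost its call with RIN as a covariate, and MAFF (p_adj = 0.184) lost its call under limma-voom. Without control 3, p_adj of MAFF was 0.0813. The remaining lists without a call, amino acid synthesis with the integrated stress response and interferon with antigen presentation, had 6 and 5 members, 2 and 2 of them at an unadjusted p-value under 0.05.

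**Figure D4:**
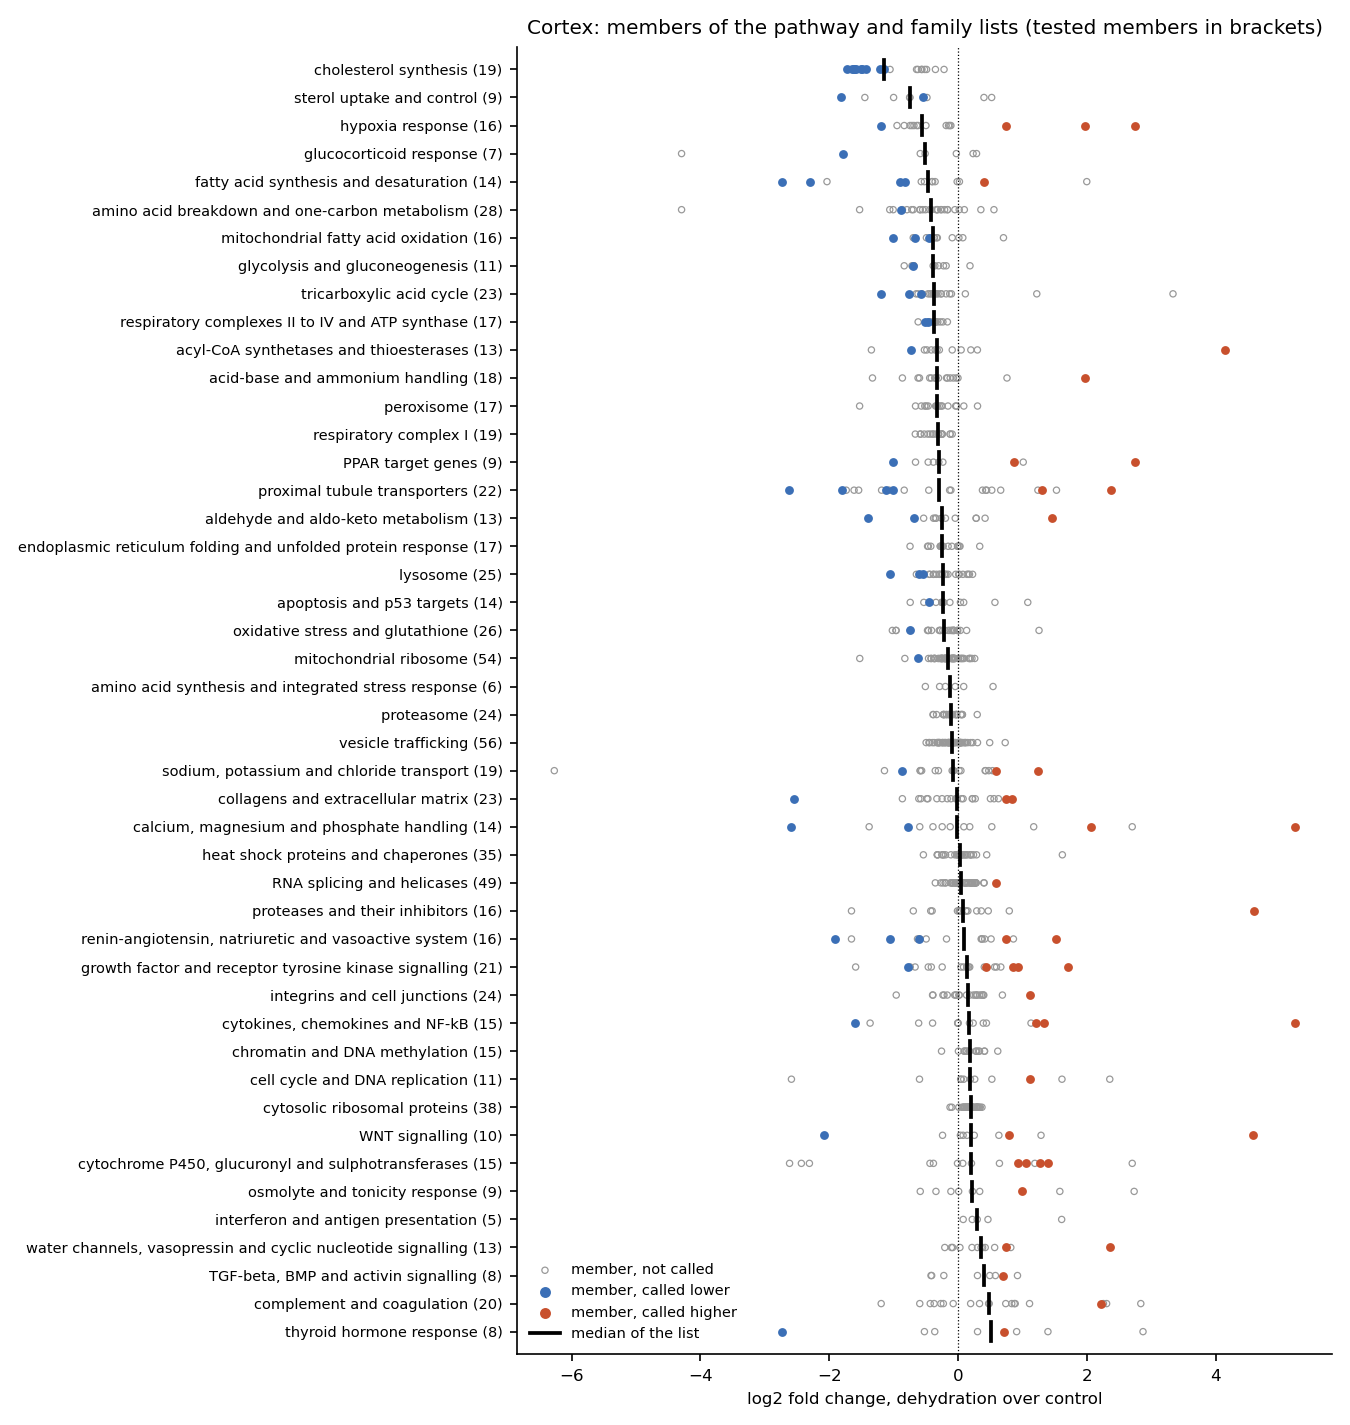
log2 fold change in dehydrated over control cortex (x axis) of the tested members of each of the 46 lists (rows, ordered by median, with the number of members). Filled points are DEGs, open points are not called and black ticks are medians, which run from -1.14 for cholesterol synthesis to 0.51 for thyroid hormone response, and the point of TNFRSF11B at the far right is a fitted value against controls near 0.

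The medulla of the same 10 camels gave 149 DEGs (0.969% of the tested genes) in the same fit. Of these 39 were also DEGs of the cortex, 10.8% of the cortex and 26.2% of the medulla DEGs, and all 39 had the same sign. Of the 360 cortex DEGs, 83.1% had the same sign in the medulla, against 57.0% of all tested genes, and the camels are shared between the tissues. SCD, THRSP, SLC17A3, ANGPTL4 and ACSBG1 were DEGs in both, and ACSBG1 changed by 6.76 ± 0.68, p_adj = 7.35e-07 in the medulla.

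A difference between the responses of the tissues was called for 6 genes (0.039% of those tested), of which 5 are described. For WNT7B the cortex exceeded the medulla by 4.47 ± 0.62, p_adj = 0.000954, and the medulla itself changed by 0.11 ± 0.37, p_adj = 0.957. PVALB (2.95 ± 0.51, p_adj = 0.0201) and MYO1A, a brush border myosin (2.91 ± 0.52, p_adj = 0.0201), rose in the cortex with a log2 fold change below 0 in the medulla. MYO1A stood at 1.02, 0.800, 0.493, 0.349 and 1.39 CPM in the control camels and 2.67, 2.27, 3.63, 4.28 and 2.96 CPM in the dehydrated camels. SLC27A3, an acyl-CoA synthetase of the fatty acid transporter family, was a DEG of the medulla only (-1.07 ± 0.23, p_adj = 0.0161), and the difference was 1.82 ± 0.33, p_adj = 0.0201. It stood at 12.6, 9.17, 15.0, 16.7 and 14.7 CPM in the control camels and 22.4, 24.5, 21.2, 23.5 and 22.8 CPM in the dehydrated camels, without overlap, and p_adj in the cortex was 0.0858. HARBI1, a transposase-derived gene, fell in the cortex (-0.65 ± 0.14, p_adj = 0.0103) and changed by 0.39 ± 0.14, p_adj = 0.216 in the medulla, a difference of -1.04 ± 0.20, p_adj = 0.0337. With the animal as a block only WNT7B was called. When the rehydrated libraries, whose names do not match between the tissues, were left out of that fit, 4 genes were called, 3 of them among the 6 (WNT7B, PVALB and SLC27A3). With RIN as a covariate PVALB, SLC27A3 and HARBI1 were not called (p_adj = 0.0820, 0.0820 and 0.0986), and under limma-voom MYO1A was not (p_adj = 0.0559). Without the block 1111 genes had an unadjusted p-value under 0.05, and leaving out 1 library gave 1 call without control 2, 3 without dehydrated 3 and 18 without control 3.

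**Figure D5:**
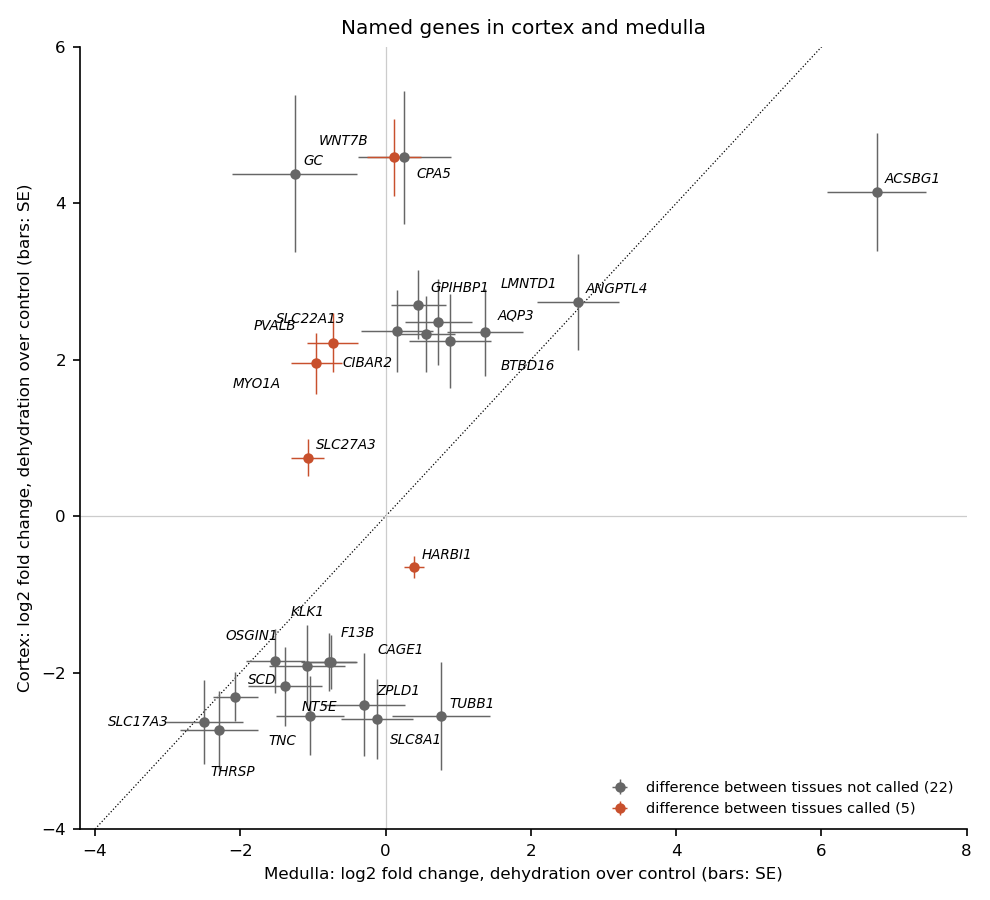
log2 fold change in dehydrated over control camels in the medulla (x axis) and the cortex (y axis) for the 24 named genes and those whose response differed between tissues, with bars for 1 SE and a dotted line of equal change. The 5 coloured genes are those described with p_adj under 0.05 for the difference, WNT7B at 4.59 in the cortex and 0.11 in the medulla.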

How the data were processed

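Total RNA of kidney cortex and medulla was poly(A)-selected and sequenced in pairs on a NextSeq500. The authors trimmed reads with BBDuk and counted fragments per gene of the CamDro2 genome with featureCounts (1.6.2), reverse-stranded, and the deposited values are raw counts. The aligner is named differently in the sources used here. The spans of HSD17B12, TCF7L1, SMAD7 and SRSF4, introns included, overlap another gene model on the same strand. The effect of that overlap on their counts was not tested. Of 22444 genes, 15376 were kept by filterByExpr of edgeR (minimum count 10, minimum total 15).

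Counts of all 30 libraries were fitted together in edgeR 4.0.16 (R 4.3.3) with TMM scaling and the quasi-likelihood test, the 6 groups sharing 1 estimate of the spread (biological coefficient of variation 34.0%). CPM used edgeR's scaled library sizes. p-values were adjusted over all tested genes (Benjamini-Hochberg), and a gene was called at p_adj under 0.05. Depth (12634346 to 19785428 counts in the compared libraries) limits precision for genes of a few CPM. The labels give cortex and medulla of control and dehydrated camels the same animal, and for rehydrated camels the library names run over different numbers in the tissues. The tissues' deviations from the group means correlated at 0.139 on average in control and 0.0934 in dehydrated camels, and the difference between tissues was also fitted with the animal as a block, with all libraries and without the rehydrated ones.

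Named genes were the 12 highest and 12 lowest fold changes among named DEGs without overlap whose mean reached 1 CPM, then the called members of each list with at least 5 tested members, marker genes, genes whose response differed between tissues and unnamed genes with the largest changes. In lists with more than 4 called members, those beyond the 4 smallest p-values were named after their values were seen. Members and lists were chosen with earlier results of these data known. Symbols came from the study's supplementary tables (3780 identifiers, 140 through RefSeq). Alternatives used DESeq2 1.42.0, limma 3.58.1, other scalings, filters, sample sets, blocks, RIN, a threshold of 0.01 and libraries left out, and 2 options of the edgeR fit and the block without rehydrated libraries were chosen after seeing the data. Results of some genes are not reported here. Scripts were tested on simulated data.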

Additional observations from a re-analysis of the deposited data

Results flagged for a closer look

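A sample was marked where its gap to the nearest other sample of its group of 5 exceeded 0.71 of the group's range, a rule by which chance marks about 1 in 20 groups. It marked 21 of 214 groups of values, 6 of them in control 3. Control 3 lay at a distance of 121 from its group mean and was high for BTBD16 at 1.18 CPM, HSD17B12 at 362.5 CPM and OGDH at 339.6 CPM, and low for CPT2 at 100.3 CPM and LDHD at 82.3 CPM. Its part in the results was measured by leaving it out.

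Control 4 was high for SLC17A3, at 800.4 CPM, and for SLC13A1, at 270.6 CPM, and control 5 was low for HSD11B1, at 52.9 CPM. For TNFRSF11B control 2 held 0.0728 CPM and every other control 0, and dehydrated 5 was high at 2.89 CPM. Dehydrated 3 was marked for GC at 360.7 CPM, SLC8A1 at 11.7 CPM, STC1 at 6.98 CPM and ERBB2 at 309.6 CPM. Dehydrated 2 was marked for SLC13A1 at 87.7 CPM, SFRP4 at 4.46 CPM and TCF7L1 at 25.6 CPM. Dehydrated 1 stood apart for HACD2 at 17.0 CPM, and dehydrated 5 for INSIG1 at 19.0 CPM and for the summed fibroblast and smooth muscle markers at 753.8 CPM.

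The response of 6 genes differed between the tissues by a test of the difference itself. For the 5 described, the log2 fold change in cortex minus that in medulla was 4.47 for WNT7B, 2.95 for PVALB, 2.91 for MYO1A, 1.82 for SLC27A3 and -1.04 for HARBI1.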

How the results depend on the processing

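Of 102 called genes (those of the lists, the 24 most changed and 4 without a symbol), 0 reversed their sign in up to 23 alternatives and 43 were called under all of them. DESeq2 lost 0 of the 102, limma-voom 21, RIN as a covariate 31, the 15 cortex libraries alone 22, the compared libraries alone 12 and the fits with 1 library left out 12 (without control 3) to 37 (without dehydrated 3). The 360 cortex DEGs became 706 with DESeq2, 214 with RIN as a covariate, 109 at p_adj under 0.01 and 189 (without dehydrated 3) to 390 (without control 3) with 1 library left out. They became 481 with the compared libraries alone and 338 with the 15 cortex libraries alone. The 83 called list members became 163 with DESeq2, 41 at p_adj under 0.01 and 54 (without dehydrated 3) or 55 (without control 4) to 94 with 1 library left out. Of the 24 most changed named genes, 13 passed p_adj under 0.01 and 16 to 22 stayed called with 1 library left out. The 6 differences between tissues became 57 with DESeq2, 2 with the replicate number as a block, 1 with the animal as a block (4 without the rehydrated libraries), 3 with RIN, 1 at p_adj under 0.01, 10 without control 3 and dehydrated 4, and 1 to 18 with 1 library left out (1 without control 2, 3 without dehydrated 3, 18 without control 3). Causes of these shifts were not tested.

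Control and dehydrated camels with the same replicate number are different animals that share only a number. Their deviations correlated at -0.23 to 0.29, and the numbers matched best in 1 of 5. A replicate block over them gave 359 DEGs, 325 of them among the 360. Depth limits calls among genes of a few CPM, and the spread of the 5 camels limits the rest.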
